A study of Mus musculus with 9 samples.

Results

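The class IIa histone deacetylase genes Hdac4, Hdac5, Hdac7 and Hdac9 and the myocyte enhancer factor 2 genes Mef2a, Mef2c and Mef2d were followed in T15, a cell line from a murine peripheral T-cell lymphoma (PTCL) that lacks Smarcb1, a core subunit of the SWI/SNF chromatin remodelling complex. These 7 genes were taken by symbol from a matrix of 35288 genes, and all 7 were among the 13697 genes with enough reads to be tested. The 9 RNA-seq libraries formed 3 groups of 3, and the Smarcb1-negative background was common to all of them. Control cells carry no further description in their group label. SAHA cells received 1 µM of SAHA (vorinostat), a hydroxamate inhibitor of histone deacetylases, given repeatedly over 72 h. Smarcb1-RE cells carried a lentiviral pInd20 plasmid with a Smarcb1 cDNA, were selected with G418 and were induced with 0.5 µg/µl doxycycline for 72 h. The study's RNA-seq text calls the control cells untreated, while its re-expression scheme also has T15 cells with an empty control vector and doxycycline. The labels mention a vehicle and a control plasmid without tying them to libraries. Transduction, G418 and doxycycline therefore cannot be told apart from Smarcb1 itself when Smarcb1-RE is compared with control. T15 is a single line. The study calls its replicates biological, and whether they were separate clones is not given in the sources used here, so the p-values measure the spread between libraries of this line.

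Class IIa deacetylases have little catalytic activity of their own and work as signal-dependent corepressors. They bind MEF2 factors on DNA and bring in the NCoR/SMRT complex with Hdac3. Kinases of the CaMK, protein kinase D and SIK families phosphorylate them, 14-3-3 proteins then hold them in the cytoplasm after export from the nucleus, and MEF2 is freed to activate its targets. MEF2 factors are MADS-box proteins that bind A/T-rich DNA. In the T lineage, Hdac7 is known as the repressor that MEF2D recruits to the Nr4a1 gene until the T-cell receptor signals. SAHA acts mainly on class I and class IIb enzymes and only weakly on class IIa.

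The genes lie on 7 different chromosomes in GENCODE M21 (GRCm38). Hdac4 is at chr1:91928779-92195699, Hdac5 at chr11:102194432-102230166, Hdac7 at chr15:97792664-97844502, Hdac9 at chr12:34047580-34917095 and Mef2a at chr7:67231163-67372858, all on the minus strand. Mef2c is at chr13:83504034-83667080 and Mef2d at chr3:88142372-88172086, both on the plus strand. Because MEF2 factors are known to act on genes of their own circuit, the promoter windows of the members (RefSeq, GRCm38.p6, 250 bases before to 50 bases after each start) were searched for the MEF2 site CTANNNNTAG, which reads the same on both strands. The 7 genes had 13 windows. The site was found in 3 of the 13, in those of Hdac5, Hdac9 and Mef2a, and in 3.69% of all 32851 windows. Counted by gene, that was 3 of 7 members against 4.23% of all 27025 genes with a window. Of all genes, 84.6% had 1 window, as did Hdac4, Hdac5, Mef2a and Mef2d, whereas Hdac7, Hdac9 and Mef2c had more. The inner 4 bases were all A or T, the classical form, in 2 of the member windows and in 0.557% of all windows. The windows with the site follow 5′ to 3′ on the strand of the gene, with the site in capitals, and a Mef2c window without it stands beside them because Mef2c was the Mef2 gene with the largest change.
Hdac5, chr11:102230123-102230422, minus strand: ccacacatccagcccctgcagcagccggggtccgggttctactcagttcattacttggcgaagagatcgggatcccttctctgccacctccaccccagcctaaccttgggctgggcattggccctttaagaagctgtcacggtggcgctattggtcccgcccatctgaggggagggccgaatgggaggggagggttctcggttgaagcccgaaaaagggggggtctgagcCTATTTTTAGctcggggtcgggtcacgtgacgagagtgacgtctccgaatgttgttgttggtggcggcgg
Mef2a, chr7:67372809-67373108, minus strand: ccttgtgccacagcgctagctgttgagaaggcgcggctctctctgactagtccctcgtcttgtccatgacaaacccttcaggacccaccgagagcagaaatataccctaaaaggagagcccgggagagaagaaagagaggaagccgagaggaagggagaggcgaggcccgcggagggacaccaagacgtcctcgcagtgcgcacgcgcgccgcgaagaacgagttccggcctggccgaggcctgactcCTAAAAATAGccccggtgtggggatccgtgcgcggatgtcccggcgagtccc
Hdac9, chr12:34528840-34529139, minus strand: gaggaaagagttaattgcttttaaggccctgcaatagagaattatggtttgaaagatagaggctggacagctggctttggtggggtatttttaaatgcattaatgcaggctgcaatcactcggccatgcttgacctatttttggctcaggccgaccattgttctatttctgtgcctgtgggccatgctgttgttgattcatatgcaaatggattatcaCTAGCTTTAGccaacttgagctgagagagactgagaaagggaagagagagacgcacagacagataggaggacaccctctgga
Mef2c, chr13:83503784-83504083, plus strand: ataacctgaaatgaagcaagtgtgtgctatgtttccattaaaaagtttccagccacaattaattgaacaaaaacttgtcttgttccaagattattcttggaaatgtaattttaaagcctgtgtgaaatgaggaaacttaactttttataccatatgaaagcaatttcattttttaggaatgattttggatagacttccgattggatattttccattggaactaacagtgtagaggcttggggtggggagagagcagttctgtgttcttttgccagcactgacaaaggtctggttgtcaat

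The Hdac5 site CTATTTTTAG began at position -20 from the first transcribed base. In Mef2a, the site CTAAAAATAG began at position -2 and so ran across the start itself. The Hdac9 window belongs to a start inside the gene, downstream of its most distal start, and its site CTAGCTTTAG began at position -32 with G and C among the inner bases. No window of Hdac4, Hdac7, Mef2c or Mef2d held these letters. The printed Mef2c window was 35.7% G or C, lower than all but 4.3% of windows, and the other two Mef2c windows were 47% and 48.3% G or C. The window of Mef2d was 72% G or C and that of Hdac5 60.7%. A match of letters is a description of the window and not a bound site.

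Library totals ranged from 20900424 to 24941408 counts, and member counts ranged from 173 to 18492 per library. Smarcb1 had 2, 5 and 8 counts in control, 7, 13 and 3 counts with SAHA, and 151, 147 and 142 counts upon re-expression, so the labels of the re-expression group matched its transcript. Of 12 T-cell markers, 9 were at 1 CPM (counts scaled to library size and TMM factor) or more in every group, with Cd8a at 690, 1012 and 793 CPM, whereas Cd2, Cd5, Thy1 and Cd4 were at or near 0. The largest sum over 4 stromal markers in any library was 1.21 CPM and over 8 myeloid markers 0.765 CPM. Control replicate 1 stood apart from the other controls: the chi-square per gene was 12.5 and 14.1 in the pairs that held it and between 2.07 and 4.55 in all other replicate pairs. It was also the lowest control library for 6 of the 7 members, all but Hdac5, so fold changes of the members against control are given with and without it. For other genes the value without it is given where it moved by over 1.5 times or changed a call.

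All members but Hdac4 changed with SAHA, and all but Hdac9 changed with Smarcb1-RE. With SAHA, Hdac5, Hdac9, Mef2c and Mef2d were higher and Hdac7 and Mef2a were lower. With Smarcb1-RE, Hdac4, Hdac5, Hdac7, Mef2a, Mef2c and Mef2d were higher and no member was lower, also not at an unadjusted p under 0.05 or by DESeq2. The test was edgeR's quasi-likelihood test with Benjamini-Hochberg adjustment over all tested genes, and a gene was called at an adjusted p under 0.05. Both treatments changed most of the transcriptome at this threshold: 66.9% of all tested genes were called with SAHA (32.6% higher, 34.3% lower) and 77.8% with Smarcb1-RE (39.2% higher, 38.6% lower), so 6 of 7 called members is to be read against these shares. Among the 9597 genes whose log2 CPM averaged 3 or more, where every member lay, the shares were 74.7% and 82.3%. A called change of at least 1 on the log2 scale was rarer. With SAHA it was met by 1 member, Hdac5, and by 12.2% of all genes. With Smarcb1-RE it was met by 2 members, Hdac5 and Mef2c, and by 23.6% of all genes. The median log2 fold change of the members was 0.39 with SAHA and 0.29 with Smarcb1-RE, against 0.00 and 0.01 over all tested genes. The absolute values had medians of 0.39 and 0.29 in the members and 0.37 and 0.53 over all genes, so 4 of the 7 members exceeded the median size of change with SAHA and 2 of the 7 with Smarcb1-RE. Both comparisons used the same control libraries, and their values are therefore given side by side without a measure of their likeness.

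**Figure D1:**
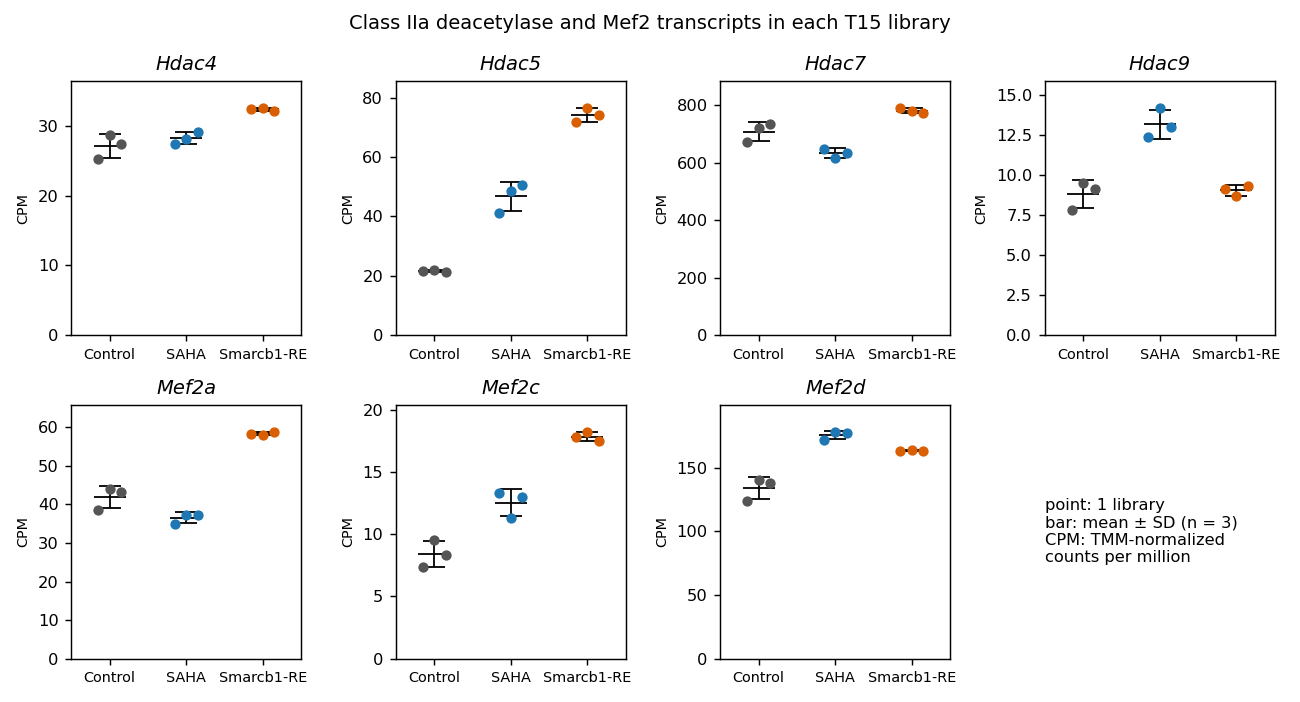
Normalized level (CPM, linear axis from 0) of each member in the 9 libraries, with 1 point a library and bars for the mean ± SD (n = 3). Hdac5 steps up from control (21.2 to 21.9 CPM) to SAHA (41.2 to 50.5 CPM) to Smarcb1-RE (71.7 to 76.4 CPM), whereas Hdac9 is high only in the SAHA libraries (12.4 to 14.2 CPM).

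Hdac5, a repressor of MEF2 that calcium-dependent kinases drive out of the nucleus, showed the largest change of the 7 genes in both comparisons with control. Its level was 21.6, 21.9 and 21.2 CPM in the control libraries, then 41.2, 48.4 and 50.5 CPM with SAHA and 71.7, 76.4 and 74.2 CPM in the Smarcb1-RE libraries. The 3 groups did not overlap and rose in this order. The fold change with SAHA was 2.16 (95% confidence interval 1.94 to 2.4, log2 1.11, SE 0.07, adjusted p = 3.82e-08), which lay above 90.8% of all tested genes. With Smarcb1-RE it was 3.43 (3.09 to 3.8, log2 1.78, SE 0.069, adjusted p = 1.88e-10), above 92.3% of all tested genes. Leaving out Control replicate 1 gave log2 1.11 and 1.77. The direct test of Smarcb1-RE against SAHA gave a log2 difference of 0.67 (SE 0.064, adjusted p = 7.83e-07). The spread within the SAHA group was the widest for this gene, with an SD of 4.9 CPM around 46.7 CPM, and SAHA replicate 1 was its lowest library.

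Hdac7, the class IIa deacetylase best known from thymocytes and T cells, moved in opposite directions in the 2 treatments. It stood at 670, 720 and 734 CPM in control, 649, 617 and 635 CPM in SAHA and 789, 780 and 773 CPM in Smarcb1-RE. All SAHA libraries were below all control libraries, and all Smarcb1-RE libraries were above them. The shifts were small. With SAHA the level fell by 0.16 on the log2 scale (SE 0.042, adjusted p = 0.00469), and with Smarcb1-RE it rose by 0.14 (SE 0.042, adjusted p = 0.00842). Without Control replicate 1 these were -0.20 and 0.10. The rise with Smarcb1-RE rested on thin support, since its adjusted p was 0.0544 without Smarcb1-RE replicate 1 and 0.0524 with no filter on low counts, within a range of 4.66e-05 to 0.0544 over 16 alternatives. The difference between the treatments was firmer, at 0.30 (SE 0.042, adjusted p = 2.8e-05). The gene Slc48a1 overlaps Hdac7 on the opposite strand. Libraries came from a directional kit, but whether counting used the strand is not given in the sources used here.

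Hdac4, a MEF2 corepressor best known from cartilage, muscle and neurons, was 25.3, 28.7 and 27.4 CPM in control, 27.4, 28.1 and 29.1 CPM in SAHA and 32.4, 32.5 and 32.1 CPM in Smarcb1-RE. The SAHA libraries overlapped the control libraries, and the log2 difference was 0.06 with a 95% confidence interval of -0.06 to 0.17 (adjusted p = 0.387). This interval leaves room for a change of at most 1.13-fold upward. The Smarcb1-RE libraries all lay above the control, with a log2 fold change of 0.25 (SE 0.054, adjusted p = 0.00084). Without Control replicate 1 the values were 0.01 and 0.20.

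Hdac9, whose short form MITR lacks the catalytic domain and still represses MEF2, was the member that responded to SAHA and not detectably to Smarcb1-RE. Its level was 7.82, 9.51 and 9.17 CPM in control, 12.4, 14.2 and 13 CPM in SAHA and 9.17, 8.68 and 9.31 CPM in Smarcb1-RE. The SAHA libraries were all above the control, and the Smarcb1-RE libraries lay within the control range. The log2 fold change with SAHA was 0.58 (SE 0.09, adjusted p = 9.08e-05), or 0.50 without Control replicate 1. With Smarcb1-RE it was 0.04 (95% confidence interval -0.17 to 0.24, adjusted p = 0.742), and it was -0.05 without Control replicate 1. The direct test found Hdac9 lower in Smarcb1-RE than in SAHA by 0.54 on the log2 scale, written as -0.54 (SE 0.09, adjusted p = 0.000119). The gene-level counts do not tell the MITR form from full-length Hdac9.

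**Figure D2:**
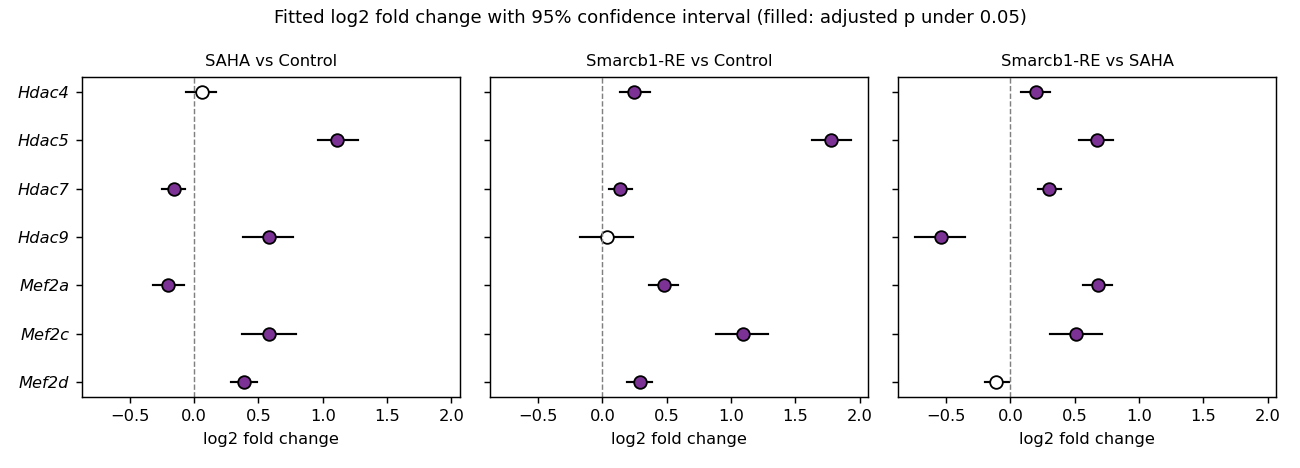
Fitted log2 fold change (x axis) of each member in the 3 comparisons, with lines for the 95% confidence interval and filled points for an adjusted p under 0.05. Hdac5 lies farthest to the right in both comparisons with control (1.11 and 1.78), Hdac7 and Mef2a lie left of 0 with SAHA and right of 0 with Smarcb1-RE, and Hdac9 is the single called member below 0 in the direct comparison (-0.54).

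Among the Mef2 genes, Mef2d was higher in both treated groups. MEF2D is the partner of Hdac7 on the Nr4a1 promoter in T cells. Mef2d levels were 124, 140 and 138 CPM in control, 172, 178 and 177 CPM in SAHA and 163, 164 and 163 CPM in Smarcb1-RE. Neither treated group overlapped the control. The log2 fold changes were 0.39 with SAHA (SE 0.046, adjusted p = 7.89e-06) and 0.29 with Smarcb1-RE (SE 0.046, adjusted p = 8.49e-05), or 0.34 and 0.23 without Control replicate 1. The direct comparison gave -0.11 (95% confidence interval -0.20 to -0.01) and an adjusted p of 0.0506, although every Smarcb1-RE library was below every SAHA library. This value lay at the threshold: it was -0.11 with an adjusted p of 0.00262 without Control replicate 1, and 0.05 with an adjusted p of 0.341 when libraries were scaled by their totals alone. The range over 16 alternatives was 0.00262 to 0.341.

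Mef2a, a widely expressed Mef2 gene, was lower with SAHA and higher with Smarcb1-RE. It was 38.6, 44 and 43.2 CPM in control, 35, 37.4 and 37.3 CPM in SAHA and 58.3, 58.1 and 58.8 CPM in Smarcb1-RE. The groups did not overlap in either comparison with control. The level fell by 0.20 on the log2 scale with SAHA (SE 0.054, adjusted p = 0.00613) and rose by 0.48 with Smarcb1-RE (SE 0.053, adjusted p = 2.78e-06). Without Control replicate 1 these were -0.26 and 0.41. The treatments differed by 0.68 (SE 0.053, adjusted p = 1.29e-07), beside 0.67 for Hdac5. Lysmd4 overlaps Mef2a on the opposite strand.

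Mef2c, known from B cells, myeloid cells, muscle and neurons and low in most mature T cells, rose in both treated groups. Its levels were 7.36, 9.51 and 8.35 CPM in control, 13.3, 11.3 and 13 CPM in SAHA and 17.8, 18.2 and 17.5 CPM in Smarcb1-RE. The 3 groups did not overlap and were ordered as for Hdac5. The fold change was 1.49 with SAHA (95% confidence interval 1.29 to 1.73, log2 0.58, SE 0.098, adjusted p = 0.000185) and 2.12 with Smarcb1-RE (1.84 to 2.45, log2 1.09, SE 0.095, adjusted p = 2.98e-07). Without Control replicate 1 the log2 values were 0.49 and 0.99. The difference between Smarcb1-RE and SAHA was 0.51 (SE 0.091, adjusted p = 0.000236). The summed level of the B-cell marker list moved in the same order, from 0.936 to 1.14 CPM in control and 1.24 to 1.86 CPM in SAHA to 7.25 to 7.97 CPM in Smarcb1-RE. This sum was carried by Ms4a1 and Pax5, with means of 3.51 and 3.89 CPM in Smarcb1-RE, while Cd79a and Cd79b stayed at or below 0.112 CPM. From control to SAHA, the mean of Pax5 went from 0.0982 to 0.767 CPM and that of Ms4a1 from 0.825 to 0.768 CPM. The step to SAHA thus came from Pax5 alone, at a level below 1 CPM. The part of this in the Mef2c result was not tested.

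In the direct comparison, 5 members were higher in Smarcb1-RE than in SAHA, Hdac9 was lower, and Mef2d was not called. No member changed by 1 or more on the log2 scale here, a size met by 19.8% of all genes. The counts are to be read against 74.6% of all tested genes called (37.7% higher and 36.8% lower), 80.4% among the genes at an average of 3 or more, and 80% of genes whose Smarcb1-RE and SAHA libraries did not overlap. Libraries of all 7 members did not overlap in this comparison. Against control, 6 of 7 members did not overlap with SAHA (68.7% of all genes) and 6 of 7 with Smarcb1-RE (79.5% of all genes). In bulk RNA, more cells with a transcript and more transcript per cell cannot be told apart. Scaling by library totals alone moved the centre of the log2 fold changes over all genes (their median) from 0.01 to 0.17 in Smarcb1-RE against control and from 0.02 to 0.18 against SAHA, and raised the share of calls that were higher from 50.4% to 61.0% and from 50.6% to 62.1%. Under this scaling the members' log2 fold changes with Smarcb1-RE moved along, to 1.94 for Hdac5, 1.24 for Mef2c, 0.64 for Mef2a, 0.44 for Mef2d, 0.41 for Hdac4, 0.30 for Hdac7 and 0.19 for Hdac9, and the same 6 of 7 were called higher.

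Levels were then compared between genes as CPM per kb of the union of exons. Hdac7 made up nearly all class IIa transcript. Its mean level was 105 ± 5.02 CPM per kb (SD, n = 3) in control, 93.8 ± 2.36 in SAHA and 116 ± 1.19 in Smarcb1-RE. This was 95.6% of the summed class IIa level in control, 92.1% in SAHA and 91.3% in Smarcb1-RE. The share of Hdac5 in the same sum was 2.24%, 5.23% and 6.64%, respectively, that of Hdac4 1.57%, 1.75% and 1.61%, and that of Hdac9 0.548%, 0.885% and 0.485%. Thus the gene with the largest fold change remained a minor part of the class. With the median length of coding transcripts in place of the exon union, the Hdac7 share was 93.2%, 88.4% and 87.9%.

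Mef2d likewise led the Mef2 genes. Its mean level was 22.4 ± 1.43 CPM per kb (SD, n = 3) in control, 29.3 ± 0.508 in SAHA and 27.3 ± 0.0561 in Smarcb1-RE, or 86.8%, 89.9% and 84.2% of the sum of the 3 Mef2 genes. Mef2a held 11.1%, 7.64% and 12.3% of this sum and Mef2c 2.07%, 2.45% and 3.52%. With the median coding transcript length, the Mef2d share was 78.7%, 83.2% and 74.8%.

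The order of the 7 levels per kb in control was Hdac7, Mef2d, Mef2a, Hdac5, Hdac4, Hdac9 and Mef2c. In SAHA and in Smarcb1-RE, Hdac5 passed Mef2a to stand in place 3, at 5.32 against 2.49 CPM per kb in SAHA and 8.44 against 3.98 CPM per kb in Smarcb1-RE. In Smarcb1-RE, Mef2c (1.14 ± 0.0233 CPM per kb) also passed Hdac9 (0.617 ± 0.0228). Hdac9 and Mef2c were neighbours whose libraries overlapped in control, at 0.602 ± 0.0608 and 0.535 ± 0.0686 CPM per kb, and in SAHA, at 0.901 ± 0.062 and 0.799 ± 0.0713 CPM per kb, so their order in these groups was within the spread. All other neighbours were separated in every library on this scale. The orders of the means were the same with the median coding transcript length. There, Hdac4 (4.56 to 4.83 CPM per kb) and Hdac9 (4.03 to 4.62 CPM per kb) overlapped in SAHA. Hdac9 and Mef2c still overlapped in control on that scale, but not in SAHA. Mef2b, the remaining Mef2 gene, had 7, 9 and 7 counts in control, 4, 12 and 20 counts with SAHA, and 21, 12 and 13 counts with Smarcb1-RE. Its log2 fold changes of 0.69 (adjusted p = 0.238) and 1.03 (adjusted p = 0.0654) were not called. They were called without SAHA replicate 1, at 1.10 (adjusted p = 0.0354) and 1.02 (adjusted p = 0.0275), and the second also without SAHA replicate 3 (1.03, adjusted p = 0.0481). Mef2b shares its locus with Borcs8 on the same strand, which leaves its counts uncertain.

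**Figure D3:**
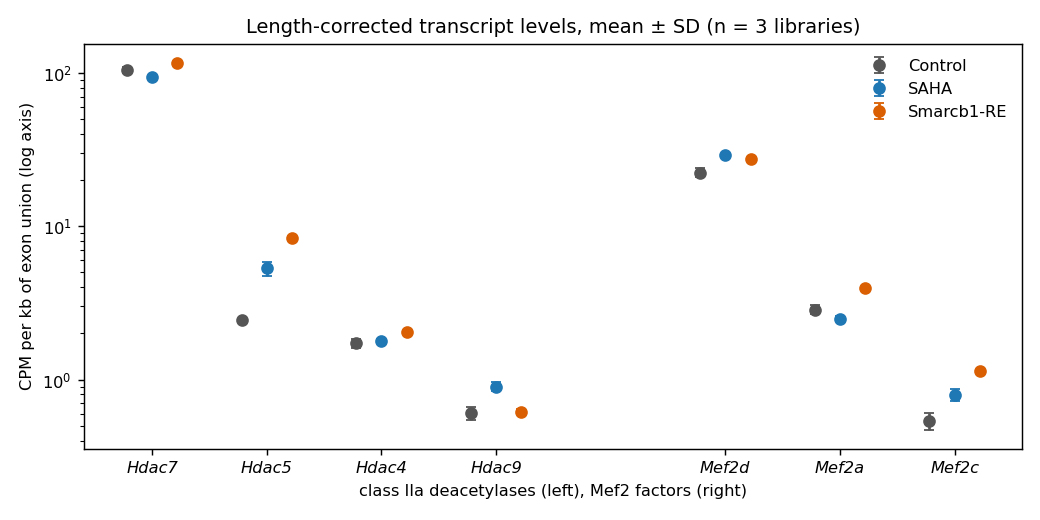
Mean transcript level per kb of exon union (log axis) of each member in the 3 groups, with SD bars (n = 3 libraries). Hdac7 (93.8 to 116 CPM per kb) and Mef2d (22.4 to 29.3 CPM per kb) exceed the other members, which lie between 0.535 and 8.44 CPM per kb.

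The partners and targets of these proteins were examined next, from lists drawn up by function. All lists were chosen with earlier results of these data known, so their counts are a description and not an independent test. Their counts are to be read against the shares of all tested genes, 32.6% higher and 34.3% lower with SAHA and 39.2% higher and 38.6% lower with Smarcb1-RE. Among 12 corepressors, 2 were higher and 7 lower with SAHA, or 2 and 8 without Control replicate 1. With Smarcb1-RE, 4 were higher and 5 lower, or 5 and 3 when scaled by library totals and 5 and 7 without Control replicate 1. Thus 9 of 12 were called in each comparison, near the 66.9% and 77.8% of all genes. The list medians were -0.19 and -0.14 on the log2 scale. Ctbp1, a corepressor that binds class IIa deacetylases and MITR, showed the largest fall, from 298, 300 and 290 CPM in control to 164, 161 and 163 CPM in SAHA and 157, 166 and 170 CPM in Smarcb1-RE. Its log2 fold changes were -0.87 (adjusted p = 3.74e-09) and -0.85 (adjusted p = 8.54e-10). Hdac3, the active enzyme of the NCoR/SMRT complex, fell by 0.41 (adjusted p = 7.91e-06) and by 0.51 (adjusted p = 6e-07). Nrip1, a nuclear receptor corepressor, rose by 0.56 (adjusted p = 6.66e-05) and by 0.87 (adjusted p = 5.93e-07). Ncor1, the scaffold of the complex, was at -0.15 with SAHA (adjusted p = 0.0281) and 0.17 with Smarcb1-RE (adjusted p = 0.012). Neither Ncor1 value was stable: the Smarcb1-RE value was 0.09 without Control replicate 1 and lost its call without Smarcb1-RE replicate 1 (adjusted p = 0.0576), and the SAHA call was lost without Control replicate 2 (0.114) or 3 (0.122) or SAHA replicate 2 (0.105) or 3 (0.0562).

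Of 19 kinases that phosphorylate class IIa deacetylases or act upstream of such kinases, 17 were tested. With SAHA, 8 were higher and 4 lower (median 0.13 on the log2 scale). With Smarcb1-RE, 6 were higher and 4 lower (median -0.01), or 10 and 4 when scaled by library totals and 5 and 6 without Control replicate 1. The called shares, 12 of 17 and 10 of 17, lay near or below the 66.9% and 77.8% of all genes. Camk2d, a calcium/calmodulin-dependent kinase that docks on Hdac4, had the largest rise of the list with Smarcb1-RE. It went from 1.96, 2.83 and 2.18 CPM in control to 4.94, 4.77 and 5.56 CPM in SAHA and 16.6, 17.1 and 17.1 CPM in Smarcb1-RE, with log2 fold changes of 1.13 (adjusted p = 8.19e-06) and 2.86 (adjusted p = 3.53e-10). Sik2, a salt-inducible kinase, had a mean of 25.8 CPM in control, 27.1 CPM in SAHA and 64.2 CPM in Smarcb1-RE. It rose with Smarcb1-RE (log2 1.32, adjusted p = 2.46e-09). The SAHA value of Sik2 was 0.07 (adjusted p = 0.404), or -0.03 without Control replicate 1 (adjusted p = 0.641). Camkk1, which activates Camk1 and Camk4, rose with SAHA (log2 1.54, adjusted p = 3.96e-06). With Smarcb1-RE it was at -0.04 (adjusted p = 0.864), or -0.09 without Control replicate 1 (adjusted p = 0.704). Camk1 fell with Smarcb1-RE by 1.27 (adjusted p = 1.08e-06), with a SAHA value of -0.26 (adjusted p = 0.0686) that was called without SAHA replicate 2 (-0.38, adjusted p = 0.0133). The direct comparison differed for all 4 kinases, at 1.73 for Camk2d, 1.25 for Sik2, -1.58 for Camkk1 and -1.01 for Camk1, the largest adjusted p being 1.19e-05.

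All 8 genes of cytoplasmic retention, the 7 of 14-3-3 proteins and the exportin Xpo1, were lower with Smarcb1-RE, against 38.6% of all tested genes. The median was -0.74 on the log2 scale, and the count of 8 lower was the same with library totals, with median-ratio factors and without Control replicate 1. With SAHA, 4 were lower (34.3% of all genes) and 1 higher, at a median of -0.12. Sfn, encoding 14-3-3 sigma, went from 105, 92.2 and 94.1 CPM in control to 90.6, 85.3 and 91.6 CPM in SAHA and 32.5, 30.5 and 32 CPM in Smarcb1-RE, where it fell by 1.62 (adjusted p = 1.07e-10). Ywhah, encoding 14-3-3 eta, fell by 0.70 with SAHA (adjusted p = 3.81e-08) and by 0.92 with Smarcb1-RE (adjusted p = 1.26e-09). Ywhae fell by 0.69 and 0.87 (adjusted p = 2.47e-08 and 1.08e-09). All 8 were also lower in Smarcb1-RE than in SAHA, against 36.8% of all tested genes, or 6 of them when scaled by library totals.

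Of 11 phosphatase genes that act on class IIa deacetylases or on MEF2, 3 were higher and 6 lower with SAHA. With Smarcb1-RE, 2 were higher and 6 lower, or 4 and 4 when scaled by library totals and 2 and 8 without Control replicate 1. The shares called, 9 and 8 of 11, were near those of all genes. The catalytic genes of protein phosphatase PP2A, which returns class IIa deacetylases to the nucleus, were among the lower ones with Smarcb1-RE. Ppp2ca fell by 0.88 with Smarcb1-RE (adjusted p = 3.16e-10) and stood at 0.02 with SAHA (adjusted p = 0.726). Ppp3cc, a catalytic subunit of calcineurin, rose from a mean of 85.1 CPM in control to 178 CPM in Smarcb1-RE (log2 1.06, adjusted p = 2.82e-10). Of 14 cofactors and kinases that activate MEF2, 2 were higher and 9 lower with SAHA. With Smarcb1-RE, 5 were higher and 8 lower, or 6 and 3 when scaled by library totals and 4 and 8 without Control replicate 1. Over all genes, 34.3% were lower with SAHA and 38.6% with Smarcb1-RE. Nfatc2, a calcineurin-dependent partner of MEF2, had 34.1, 45.2 and 48.1 CPM in control and 20.4, 18.3 and 18.7 CPM in SAHA, a fall of 1.15 (adjusted p = 9.75e-07). Nfatc1 rose with Smarcb1-RE (log2 1.01, adjusted p = 2.7e-07). Its SAHA value was 0.13 (adjusted p = 0.225), or 0.06 without Control replicate 1 (adjusted p = 0.577).

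**Figure D4:**
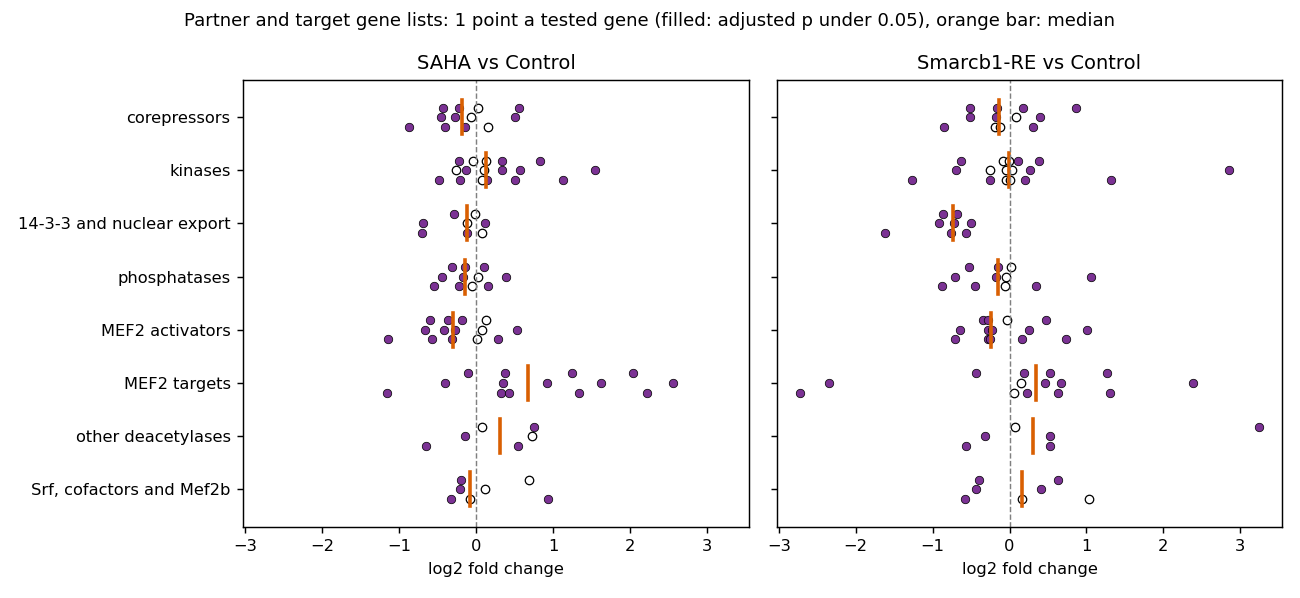
Log2 fold changes (x axis) of the tested genes in 8 lists of partners, regulators and targets, with SAHA on the left and Smarcb1-RE on the right, filled points for an adjusted p under 0.05 and a bar for the list median. All 8 genes of 14-3-3 and nuclear export lie left of 0 with Smarcb1-RE (median -0.74), and the MEF2 targets have the median farthest to the right with SAHA (0.68).

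The last list held genes known as MEF2 targets in lymphocytes or muscle. Of 20 listed, 14 were tested, and Il2, Rag1, Rag2, Ckm, Xirp1 and Myog did not have enough reads. With SAHA, 11 were higher and 3 lower (median 0.68 on the log2 scale), against 32.6% higher and 34.3% lower over all genes. The lower ones were Klf2, Rcan1 (-0.41, adjusted p = 7.41e-05) and Smyd1 (-0.10, adjusted p = 0.0256). The Smyd1 call was lost without SAHA replicate 2 (adjusted p = 0.0742) or 3 (0.0643), and Smyd1 rose by 0.23 with Smarcb1-RE (adjusted p = 8.13e-05). With Smarcb1-RE, 9 were higher and 3 lower (median 0.34), or 10 and 3 when scaled by library totals, against 39.2% and 38.6% over all genes. The medians over all tested genes were 0.00 and 0.01. Nr4a3, an orphan nuclear receptor of the Nur77 family, went from 9.61, 12.7 and 12.9 CPM in control to 57.2, 51.7 and 54.9 CPM in SAHA and 61.9, 59.2 and 61.8 CPM in Smarcb1-RE. Its log2 fold changes were 2.22 (adjusted p = 1.44e-09) and 2.38 (adjusted p = 9.25e-11). Nr4a1, which encodes Nur77 itself and is the textbook target of MEF2D and Hdac7, rose more with SAHA than with Smarcb1-RE. It was 130, 135 and 123 CPM in control, 395, 400 and 409 CPM in SAHA and 212, 196 and 208 CPM in Smarcb1-RE, with log2 fold changes of 1.63 (adjusted p = 1.2e-10) and 0.67 (adjusted p = 2.72e-08) and a direct difference of -0.97 (adjusted p = 8.77e-10).

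Other targets went in opposite directions in the 2 treatments. Irf8, a factor of myeloid and B-cell development, was 2.68, 3.3 and 3 CPM in control, 14.5, 19.4 and 19.3 CPM in SAHA and 0.341, 0.531 and 0.474 CPM in Smarcb1-RE. It rose by 2.56 (adjusted p = 1.27e-08) and fell by 2.73 (adjusted p = 2.45e-07). Il7r, the receptor chain for the survival cytokine IL-7, rose by 0.43 with SAHA (adjusted p = 5.94e-06) and fell by 2.35 with Smarcb1-RE (adjusted p = 1.01e-11). Egr1, an early gene of receptor signalling, rose by 1.34 (adjusted p = 1.45e-09) and fell by 0.44 (adjusted p = 9.51e-06). Klf2, a quiescence factor, did the reverse: it fell by 1.16 with SAHA (adjusted p = 0.00128) and rose by 1.27 with Smarcb1-RE (adjusted p = 0.000114) from a control level of 1.01 to 1.49 CPM. Irf8, Il7r, Egr1 and Klf2 differed between the treatments in the direct test, by -5.29, -2.79, -1.78 and 2.43 on the log2 scale, with a largest adjusted p of 8.97e-07. Egr1 and Klf2 were singled out after their values were seen.

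**Figure D5:**
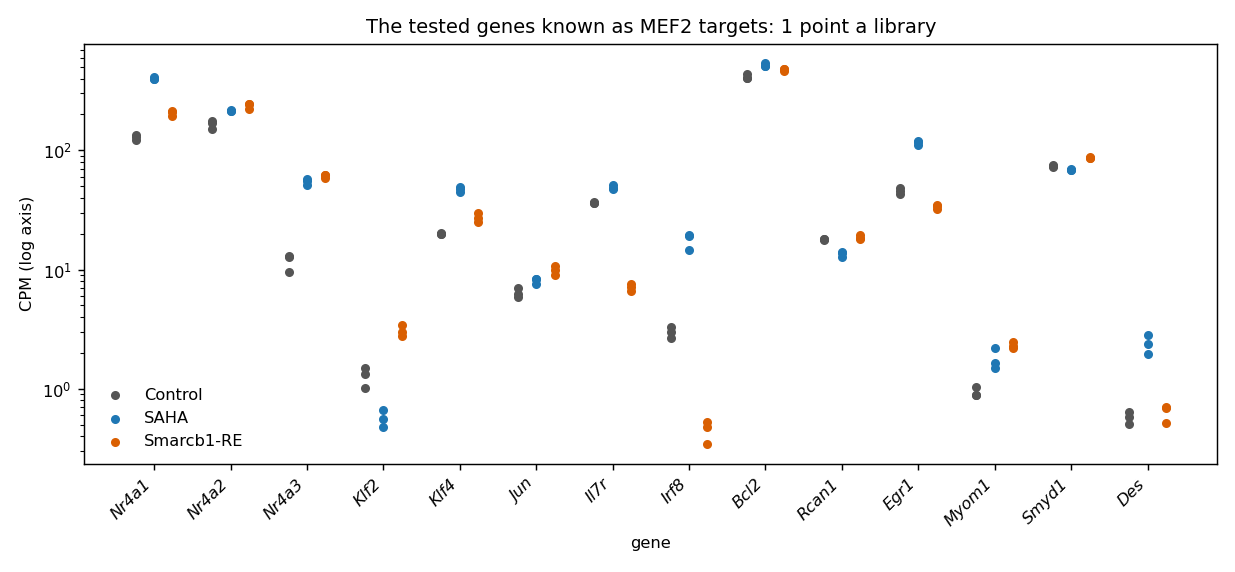
Level (CPM, log axis) of the 14 tested genes known as MEF2 targets, with 1 point a library. Nr4a3 is high in both treated groups (51.7 to 61.9 CPM against 9.61 to 12.9 CPM in control), whereas Irf8 is high in SAHA (14.5 to 19.4 CPM) and low in Smarcb1-RE (0.341 to 0.531 CPM).

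Outside class IIa, 6 further zinc-dependent deacetylases were tested, with 2 higher and 2 lower with SAHA. With Smarcb1-RE, 3 were higher and 2 lower, or 4 and 2 when scaled by library totals or without Control replicate 1. Hdac1 rose by 0.54 with SAHA and fell by 0.32 with Smarcb1-RE (adjusted p = 8.93e-08 and 6.1e-06), and Hdac6 rose in both (0.75 and 0.53, adjusted p = 1.32e-06 and 1.96e-05). In a list of Srf, the other MADS-box factor, with its cofactors and Mef2b, 7 genes were tested. With SAHA, 1 was higher and 3 lower, or 1 and 4 without Control replicate 1. With Smarcb1-RE, 2 were higher and 3 lower, or 4 and 3 when scaled by library totals. Srf itself fell by 0.58 with Smarcb1-RE (adjusted p = 1.79e-07).

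Finally, the profile of each member over the 9 libraries was set beside those of 10724 genes, as the root mean square difference of log2 CPM after centring each gene on its own mean. The genes nearest to Hdac5 were Jag2, a Notch ligand, at 0.087 and Ghr, the growth hormone receptor, at 0.088, against a median of 0.81 over all genes. Those nearest to Hdac7 were Ank3, encoding an ankyrin, at 0.025 and the corepressor Ncor1 at 0.031. The median over all genes was 0.32 for Hdac7 and 0.33 to 0.55 for the members other than Hdac5. Hdac7 and Ncor1 both changed little and were lowest in Control replicate 1 among the controls, and the Ncor1 calls were not stable. Ets1 (0.032) and Cxcr5 (0.033) were nearest to Hdac4, and Nectin3 (0.057) and Atxn1l (0.058) to Hdac9. For the Mef2 genes, the nearest were Gbp7 (0.032) and Edem3 (0.040) for Mef2d, Usp45 (0.041) and Hmbox1 (0.043) for Mef2a and Cnnm2 (0.060) and Tgfbr1 (0.074) for Mef2c. The nearest other member was farther off than these genes in each case, but it came from a far smaller pool, so the distances cannot be compared. Among the members, the closest to Hdac5 was Mef2c, at 0.33, and 355 of the 10724 genes were nearer to Hdac5 than that. Hdac4 and Hdac7 were nearest to each other, at 0.10.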

How the data were processed

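The authors deposited estimated counts per Ensembl gene for 9 RNA-seq libraries of T15 cells, without normalization or pooling. The submitters' processing notes name Salmon 0.14.1, FastQC 0.11.8, MultiQC 1.7, DESeq2 1.22.2 and the build GRCm38. The annotation release is not given in the sources used here. Symbols and lengths came from GENCODE M21, which held 99.5% of the identifiers and 99.9% of the counts. Of the values above 0, 52.4% were not whole, and all were rounded. Totals per library ranged from 20900424 to 24941408, and a count of 3 was worth 0.123 to 0.133 CPM, which covers counting error only.

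edgeR 4.0.16 in R 4.3.3 (TMM, filterByExpr with a minimum count of 10, quasi-likelihood test, 1 fit to 9 libraries, Benjamini-Hochberg adjustment) was tested on simulated data. The simulation changed few genes, unlike these data, so it does not bear on the scaling or on the rate of false calls here. The common biological coefficient of variation was 5.24%. SE is the absolute log2 fold change over the square root of F. The alternatives were DESeq2 1.42.0, other scalings and filters, a replicate block, pairwise fits, an adjusted p under 0.01 and leaving out each library, which for the list genes was added after seeing the data. Named genes were the members, Smarcb1, Mef2b, up to 2 called genes per list, comparison and direction with the largest change where log2 CPM averaged 1 or more, and the 2 nearest profiles per member. Hdac3, Egr1 and Klf2 lie outside this rule and were chosen after their values were seen. Members and lists were chosen with earlier results of these data known. Promoter sequences are from RefSeq. The level of 1 B-cell marker is not reported here.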

Additional observations from a re-analysis of the deposited data

How the results depend on the processing

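Of 357 values of members under an alternative, 345 kept their direction and their side of the threshold. The exceptions concerned 3 genes. Hdac7 in Smarcb1-RE against control lost its call with no filter on low counts (0.11, adjusted p = 0.0524) and without Smarcb1-RE replicate 1 (0.12, adjusted p = 0.0544). Hdac9 in the same comparison, never called, changed sign without Control replicate 1, with a range of -0.05 to 0.08 over the fits that left out 1 library. Mef2d in Smarcb1-RE against SAHA turned to 0.05 when scaled by library totals alone, where the median of all genes moved to 0.18, and was called lower with median-ratio factors, in a fit of only those groups, in DESeq2, with the replicate block and without Control replicates 1, 2 or 3 or SAHA replicate 1. Hence 2 members rather than 1 were called lower in that comparison under these settings. The cause was not tested.

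Over the fits that left out 1 library, the number of members called higher in Smarcb1-RE was 5 to 6 and the number called lower in Smarcb1-RE than in SAHA was 1 to 2. All 196 other counts were within 1.5 times their value. Replicate numbers did not pair the libraries: the correlation of deviations ranged from -0.0717 to 0.0366 over 9 pairs with the same number, below the 0.1 required. The replicate block gave -0.11 for Mef2d (adjusted p = 0.0498) and changed no other call of a member. The lowest count of a member in a library was 173, and the effect of depth was not tested.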
